A study of Mus musculus with 8 samples.

Results

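The red cell membrane and heme genes described here are 34 listed genes, found by symbol. They encode proteins of the red cell membrane and its skeleton, blood group proteins, erythroid regulators and chaperones, iron carriers, red cell enzymes, the heme synthesis pathway, and proteins of heme breakdown and iron storage. Of the 34 genes, 33 were matched to probes among 20145 genes named on the array, and 29 were bright enough to be tested among 14504 genes tested. Ahsp was not matched to a probe. Sptb, Epb42, Rhag and Kel were matched but stayed too dim.

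RNA came from C57BL/6 mouse cells differentiated from embryonic stem cells that carry iRUNX1, a Runx1 gene under a Tet-on system that doxycycline (DOX) switches on. Embryoid bodies grown for 3.25 days were dissociated, Flk-1+ cells were sorted, expanded, sorted again and kept for 2 days in a medium for hemogenic endothelium, from which blood cells bud. The uninduced group (DOX-, replicates 1 to 3) carries the silent transgene, and the induced group (DOX+, replicates 1 to 3) received 0.3 µl/ml doxycycline overnight, in the unit the labels give. Each group has 1 more array titled as a technical repeat, which stayed out of every test and is described apart. The labels do not say which replicate was repeated, so these arrays are no further replicate. All groups carry the transgene, and doxycycline without it was not analysed here, so effects of the drug and of the induced gene cannot be told apart. The sources used here name neither the promoter of the transgene nor the clone of the cells. The labels call the replicates independent and biological, and p-values measure only the spread between these arrays.

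In a maturing red cell, spectrin fibres are tied to the membrane by ankyrin (Ank1) through the anion exchanger band 3 (Slc4a1), and by protein 4.1 (Epb41) and adducin (Add2) through glycophorin C (Gypc) and actin. Heme is made from glycine in a chain of enzymes that starts with an ALA synthase, Alas1 in most cells and Alas2 in red cells, and ends with Fech, which inserts iron into the ring. Klf1 and the p45 subunit of NF-E2 (Nfe2) are transcription factors that act on red cell genes, and Nfe2 is also needed to form platelets.

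Levels are given as log2 processed signal minus the array's own 75th percentile, so that 0 is the level of that percentile. A change is induced minus uninduced on that log2 scale, given with its standard error (SE). All p-values are from limma, two-sided and adjusted over all 14504 genes, with a threshold of 0.05. The 75th percentile lay between 338 and 973 intensity units across the 8 arrays, the share of spots well above background was 55.6% to 70.4%, and no spot was saturated. Relative to 4 E1A spike-in probes, the 75th percentile rose from the uninduced to the induced array by 1.02, 0.75 and 1.60 log2 units in pairs 1, 2 and 3. Between the technical repeats it rose by only 0.35, so the size of this shift varied between arrays. Scaling to the spike-ins takes the added RNA to be equal on each array, which was not checked. The median change of all genes was 0.09, and it was 1.21 when arrays were scaled to the spike-ins, so every direction given here is relative to the 75th percentile. All 8 endothelial markers were well above background on all 6 replicate arrays, as were 5 of 6 smooth muscle markers. The only Runx1 probe kept read -4.71, -4.72 and -4.28 on the uninduced arrays and -6.14, -5.71 and -4.95 on the induced arrays, and it was well above background on 3 and 2 of them. Its change was -1.03 (SE 0.32, adjusted p = 0.126, or 0.0214 with replicate number as a block). The sources used here do not say whether the transgene carries the sequence of this probe, so the probe neither checks nor contradicts the labels, and all directions rest on the labels.

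Of the 29 genes tested, 2 rose, 1 fell and 26 did not pass the threshold. Nfe2 and Fth1, the heavy chain of the iron store ferritin, rose, and Tmod1, which caps the actin filaments of the membrane skeleton, fell. That is 10.3% of the genes tested, against 6.31% of all genes, of which 4.14% rose and 2.16% fell. The median change of the 29 genes was 0.01, with 16 genes above 0 and 13 below 0, against 8560 above and 5944 below 0 of all genes. In the fit with replicate number as a block 3 rose and 3 fell, or 20.7% against 16.2% of all genes (9.37% rose and 6.81% fell): Epb41 joined those that rose, and Ank1 and Trim10 joined those that fell. The 3 uninduced and 3 induced arrays did not overlap for 9 of the 29 genes (31.0%), against 28.3% of all genes. RNA was measured in bulk, so a change in the number of cells of a type and a change in RNA per cell cannot be told apart.

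**Figure D1:**
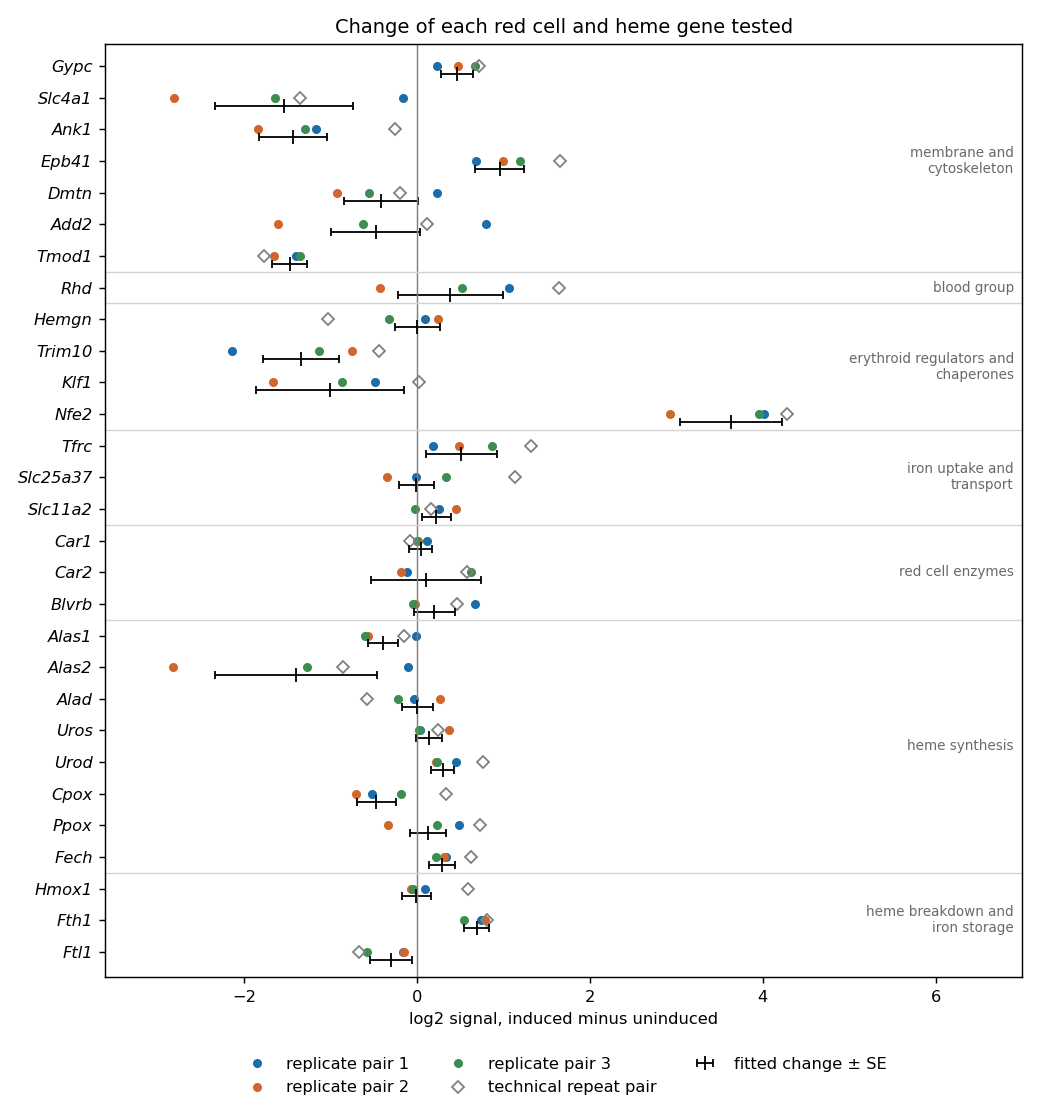
Change in log2 signal (horizontal axis, induced minus uninduced) of each of the 29 red cell and heme genes tested, grouped by role. Filled points are the 3 replicate pairs, open diamonds the pair of technical repeat arrays, and bars the fitted change ± SE. Nfe2 stands at 3.63. Slc4a1 and Alas2 have wide bars, which reflect the spread within each group, and their pair 1 lay near 0 and pair 2 near -2.81.

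Start sites were listed for 22 of the 34 genes, 30 starts in all, in RefSeq's GRCm38.p6 annotation. The sequences below are the 250 bases before a start, 5′ to 3′ in the direction of the gene. They are shown for Tmod1 and Fth1, which passed the threshold, and for Klf1 and Alas2, which are among the genes that varied most between replicates. Capitals mark matches, on either strand, to a GATA motif (AGATAA, also with T as its first base or G as its last), a KLF motif (CCNCNCCC, whose letters overlap the GC box), a RUNX motif (TGTGGT) or an NF-E2 motif (TGACTCA, which is also an AP-1 motif).
Tmod1, chr4:46038972-46039221, plus strand: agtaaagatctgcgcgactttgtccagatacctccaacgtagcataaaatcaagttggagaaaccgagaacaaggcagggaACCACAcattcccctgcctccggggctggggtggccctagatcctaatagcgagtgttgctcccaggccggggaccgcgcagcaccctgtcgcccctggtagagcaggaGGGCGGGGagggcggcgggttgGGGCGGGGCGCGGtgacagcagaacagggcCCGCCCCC
Klf1, chr8:84901732-84901981, plus strand: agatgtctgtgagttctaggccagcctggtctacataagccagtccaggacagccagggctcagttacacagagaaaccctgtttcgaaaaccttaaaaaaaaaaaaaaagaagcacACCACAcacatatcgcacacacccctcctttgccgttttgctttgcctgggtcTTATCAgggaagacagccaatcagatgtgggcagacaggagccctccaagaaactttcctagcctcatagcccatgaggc
Fth1, chr19:9982396-9982645, plus strand: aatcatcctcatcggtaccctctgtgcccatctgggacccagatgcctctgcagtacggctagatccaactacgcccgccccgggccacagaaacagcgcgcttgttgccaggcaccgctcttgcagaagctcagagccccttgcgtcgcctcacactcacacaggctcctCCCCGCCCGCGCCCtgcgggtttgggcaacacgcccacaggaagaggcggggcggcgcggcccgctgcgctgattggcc
Alas2, chrX:150547167-150547416, plus strand: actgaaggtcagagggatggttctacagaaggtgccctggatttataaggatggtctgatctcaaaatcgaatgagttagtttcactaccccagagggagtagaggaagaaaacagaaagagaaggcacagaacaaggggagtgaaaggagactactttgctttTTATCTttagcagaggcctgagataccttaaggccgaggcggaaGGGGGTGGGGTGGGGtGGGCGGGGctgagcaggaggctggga
The Tmod1 window held 4 KLF matches and 1 RUNX match, the Klf1 window 1 GATA and 1 RUNX match, the Fth1 window 2 KLF matches, and the Alas2 window 1 GATA and 4 KLF matches. Neighbouring KLF matches overlap in the Tmod1, Fth1 and Alas2 windows. The other listed Fth1 start, with its window at chr19:9980350-9980599, held none of these letters. Across the 30 starts of the listed genes, 13 windows held a GATA match (43.33%, against 26.54% of the 32841 starts listed genome-wide), 17 a KLF match (56.67% against 45.94%), 6 a RUNX match (20% against 14.05%) and 2 an NF-E2 match (6.667% against 4.464%). Several genes have more than 1 start, whose windows can overlap. A match is a description of the letters in the window.

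Among the 7 membrane and skeleton genes tested, 1 fell and 6 did not pass, and their median change was -0.48, with 5 below 0. Tmod1 read -2.95, -3.08 and -3.44 on uninduced arrays 1, 2 and 3 and -4.35, -4.73 and -4.80 on the induced arrays. Every induced array lay below every uninduced array, and the technical repeats read -3.08 and -4.85. Its change was -1.47 (SE 0.20, adjusted p = 0.0104), or 2.77-fold lower. Without uninduced replicate 2 the adjusted p was 0.0526, with normexp background correction the change was -0.82 (adjusted p = 0.0353), and with spike-in scaling it was -0.35 (adjusted p = 0.659).

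Ank1, which links spectrin to band 3, read -5.20, -4.91 and -4.20 uninduced and -6.37, -6.74 and -5.49 induced. The groups did not overlap, but the probe was well above background on only 1 of 3 induced arrays. The change was -1.43 (SE 0.39, adjusted p = 0.0913, or 0.00773 with the block), and -0.69 with normexp background correction. The technical repeats differed by less, at -4.70 and -4.95.

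Epb41, protein 4.1, had the opposite sign at its brightest probe, which read 3.92, 4.38 and 4.37 uninduced and 4.60, 5.37 and 5.56 induced. Each induced array was above all uninduced arrays, with a change of 0.96 (SE 0.28, adjusted p = 0.115, or 0.0156 with the block). Without induced replicate 1 it passed without the block, with a change of 1.24 (adjusted p = 0.0402). The differences at the other kept probes of Epb41 were -0.04 and 0.72, so its probes did not share a direction.

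Slc4a1, the anion exchanger band 3, ranged widely among the uninduced arrays. It read -2.89, 0.54 and -0.96 uninduced and -3.06, -2.27 and -2.60 induced. Uninduced replicate 1 lay within the range of the induced arrays, and the other uninduced arrays lay above it. The change was -1.54 (SE 0.80, 95% interval -3.45 to 0.37, adjusted p = 0.317), and it was -2.43 (adjusted p = 0.0476) without uninduced replicate 1.

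The remaining membrane genes differed less between the groups. The fitted difference was 0.46 (SE 0.18, adjusted p = 0.215) for Gypc, glycophorin C, -0.42 (SE 0.43) for Dmtn, the actin-bundling protein dematin, and -0.48 (SE 0.51) for Add2, beta-adducin. The groups of all 3 genes overlapped. Sptb, beta-spectrin, was well above background on 2 of 3 arrays of each group, and Epb42, protein 4.2, on 1 uninduced and no induced array. Their levels averaged -4.59 and -5.55 for Sptb and -6.01 and -7.25 for Epb42, uninduced and induced.

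**Figure D2:**
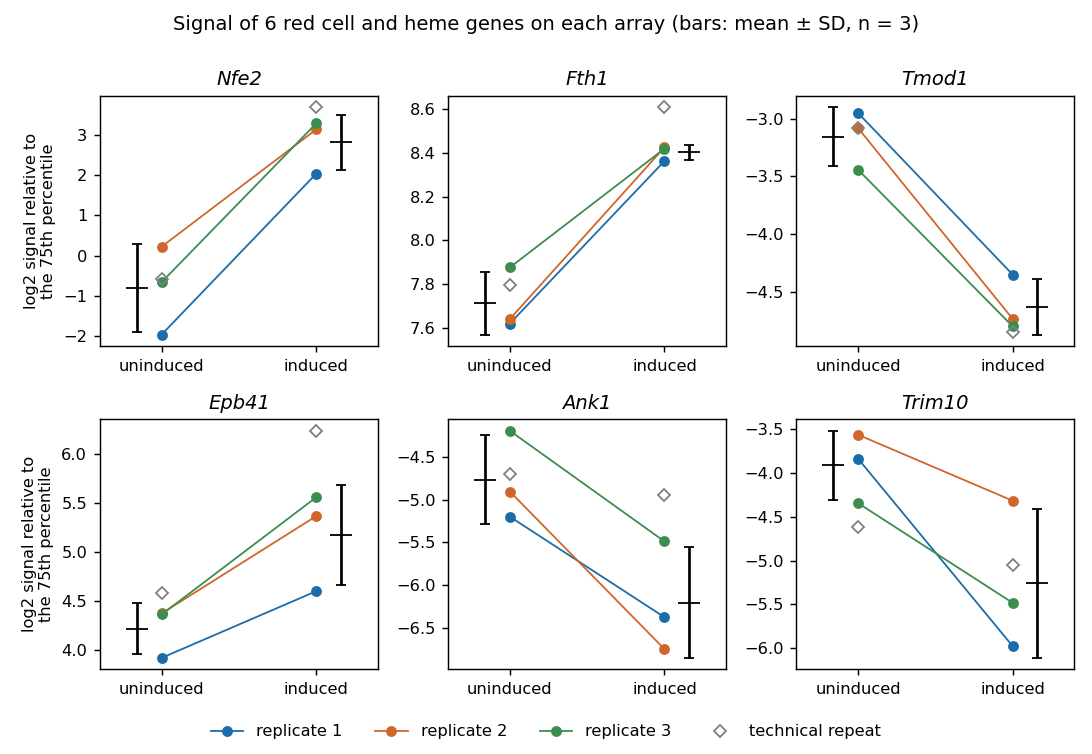
Log2 signal relative to the array's 75th percentile (vertical axis, own scale for each gene) on uninduced and induced arrays for the 6 genes that passed the threshold with or without the replicate block. Lines join arrays of the same replicate number, open diamonds are the technical repeats, and bars beside the points are the mean ± SD (n = 3). All 3 lines rise for Nfe2, Fth1 and Epb41 and fall for Tmod1, Ank1 and Trim10, and only for Trim10 do the replicate arrays of the groups overlap.

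Of the blood group genes, Rhd alone was tested, and it was well above background on 1 of 3 uninduced and all 3 induced arrays. Its change was 0.39 (SE 0.61, 95% interval -1.07 to 1.84), and it was -0.43 with normexp background correction. Rhag, the Rh-associated glycoprotein that carries Rh to the membrane, was well above background on none of the 6 replicate arrays. Kel, the Kell antigen, was well above background on 1 array of each group.

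Among the 4 erythroid regulators tested, Nfe2 rose and 3 did not pass the threshold. Nfe2 read -1.97, 0.22 and -0.66 on the uninduced arrays and 2.04, 3.14 and 3.30 on the induced arrays. The lowest induced array was above the highest uninduced array, and the technical repeats read -0.59 and 3.69. The change was 3.63 (SE 0.59, adjusted p = 0.0182), or 12.4-fold higher. It missed the threshold without uninduced replicate 3 (adjusted p = 0.0513), without induced replicate 2 (0.0706) and without induced replicate 3 (0.063), with changes from 3.05 to 4.14 over all 6 omissions.

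Some genes listed as markers of megakaryocytes and mast cells rose with Nfe2. Summed levels, here and below, add linear signals, so the brightest genes of a list weigh most. The summed level of 8 megakaryocyte markers, where 1 is the 75th percentile, was 2.98 to 5.28 on uninduced and 8.18 to 17.4 on induced arrays. Pf4 was the brightest of them on each induced replicate array. Of the 6 markers tested, Pf4 rose by 2.54 (SE 0.45, adjusted p = 0.0245, or 0.0313 to 0.0691 with 1 array left out), and 5 were well above background on all 6 arrays. With the block 3 passed (50% of the 6, against 16.2% of all genes), and all 3 rose: Pf4, Gp9 (adjusted p = 0.0117) and Gp1ba (adjusted p = 0.0042). The sum of 8 mast cell markers was 0.62 to 0.72 uninduced and 2.72 to 5.83 induced. Of the 4 tested, Mcpt4 (adjusted p = 0.0031) and Mcpt8 (adjusted p = 0.0034) rose (50%, against 6.31% of all genes). They are named mast cell proteases, and whether mast cells made them was not tested. They were the brightest of the 8 on each induced replicate array. Both were well above background on only 1 of 3 uninduced arrays, so the size of their rise is uncertain: it was 5.34 and 6.96 with the processed signal and 2.89 and 3.70 with normexp background correction. The other mast cell markers tested, Hdc at -0.36 (SE 0.21) and Tpsb2 at -0.42 (SE 0.19), did not pass and were lower in all 3 pairs, and Fcer1a, Cma1 and Ms4a2 were well above background on no array. The part of these cells in the rise of Nfe2 was not tested.

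Trim10, a RING finger protein of maturing red cells, read -3.84, -3.57 and -4.35 uninduced and -5.97, -4.32 and -5.48 induced. Induced replicate 2 overlapped the uninduced arrays. Its change was -1.34 (SE 0.44, adjusted p = 0.143, or 0.0362 with the block), and it was -1.81 (adjusted p = 0.0419) without induced replicate 2 and -0.77 with normexp background correction.

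Klf1, the activator of adult beta-globin whose upstream window is shown above, read -5.33, -2.13 and -3.83 uninduced and -5.81, -3.79 and -4.69 induced. Each induced array was below its own numbered partner, and the groups overlapped. The pairs differed by -0.48, -1.66 and -0.86 (95% interval of the fitted change -3.05 to 1.05, adjusted p = 0.521, or 0.0537 with the block), while the technical repeats read -3.83 and -3.80. Hemgn, hemogen, had a change of 0.01 (SE 0.26, 95% interval -0.62 to 0.63).

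Of the 3 genes of iron uptake and transport, none passed the threshold with or without the block. The changes were 0.51 (SE 0.41) for Tfrc, the transferrin receptor, 0.23 (SE 0.16) for Slc11a2, the iron transporter DMT1, and -0.01 (SE 0.20) for Slc25a37, mitoferrin, which brings iron into mitochondria. The groups overlapped for each of these genes. Other kept probes of these genes gave lower values than the probe that stood for the gene, with differences of -0.37 and -0.55 for Tfrc, -0.59 for Slc11a2 and -0.91 for Slc25a37. The culture media contained human transferrin in both groups.

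The red cell enzymes also stayed short of the threshold in both fits. Car1 and Car2 are carbonic anhydrases and Blvrb is biliverdin reductase B. Their changes were 0.04 (SE 0.13, 95% interval -0.27 to 0.35) for Car1, 0.11 (SE 0.64) for Car2 and 0.20 (SE 0.24) for Blvrb. Car2 varied more between replicates of a group than between groups: it read -0.91, 0.92 and 0.21 uninduced and -1.03, 0.74 and 0.83 induced, with replicate 1 the lowest in both.

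None of the 8 heme synthesis genes passed the threshold with or without the block. Alas2, the red cell ALA synthase, read -3.28, 0.61 and -1.01 uninduced and -3.38, -2.20 and -2.29 induced. Uninduced replicate 1 lay among the induced arrays. The change of -1.40 had an SE of 0.93 and a 95% interval from -3.62 to 0.83 (adjusted p = 0.419). Alas1, the ALA synthase of other cells, read 4.16, 4.33 and 4.56 uninduced and 4.15, 3.77 and 3.96 induced. The groups lay side by side without overlapping, and the change was -0.39 (SE 0.18, adjusted p = 0.255).

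Fitted differences of the 7 heme synthesis genes other than Alas2 lay between -0.47 and 0.30. That of Urod, which decarboxylates uroporphyrinogen, was 0.30 (SE 0.13, adjusted p = 0.253). Fech, the ferrochelatase, had a difference of 0.29 (SE 0.15, adjusted p = 0.313), and Uros, uroporphyrinogen III synthase, of 0.14 (SE 0.15). The groups of these 3 genes, as of Alas1, did not overlap, which is 50% of the 8 heme synthesis genes, against 28.3% of all genes. The gap was narrow for Uros, at 2.01 on the highest uninduced and 2.03 on the lowest induced array. Cpox and Ppox, which oxidise the ring precursors, had differences of -0.47 (SE 0.23, adjusted p = 0.29) and of 0.13 (SE 0.21). Alad, which joins ALA molecules, had a change of 0.00 (SE 0.18, 95% interval -0.42 to 0.43).

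In heme breakdown and iron storage, Fth1 rose and the other two genes did not pass the threshold. Fth1 read 7.62, 7.64 and 7.88 uninduced and 8.36, 8.43 and 8.42 induced. All induced arrays were above all uninduced arrays, and so was the induced technical repeat, at 8.61 against 7.80. The change was 0.69 (SE 0.14, adjusted p = 0.0384), or 1.61-fold higher. The call was lost when any single replicate array was left out (adjusted p = 0.0671 to 0.171, changes 0.65 to 0.77), without a filter on dim probes (0.0935) and with spike-in scaling (0.131).

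Ftl1, the ferritin light chain, read 8.91, 9.40 and 9.68 uninduced and 8.75, 9.25 and 9.10 induced. The groups overlapped, with a change of -0.29 (SE 0.24, adjusted p = 0.505). Hmox1, the heme oxygenase that opens the heme ring, had a change of 0.00 (SE 0.17, 95% interval -0.42 to 0.41) at its brightest probe and of -0.45 at its other probe. Ferritin genes have near-identical copies in the genome, which a probe may also read.

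There were 6 genes that ranged over more than 2 log2 units among the uninduced replicate arrays: Slc4a1, Add2, Rhd, Klf1, Nfe2 and Alas2. That is 20.7% of the 29 genes, against 2.36% of all genes, a limit set after the values were seen. On the induced arrays 1 of 29 did so (3.45%), against 2.09% of all genes. In all 6 genes uninduced replicate 2 was the highest and uninduced replicate 1 the lowest, though Rhd was well above background on only 1 of 3 uninduced arrays. Over the 29 genes that order held for 11 (37.9%) on the uninduced and 9 (31.0%) on the induced arrays, against 12.8% and 13.6% of all genes. The order, too, was picked after the values were seen, and the 11 include the 6 genes it was seen in.

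The red cell globins had the same order. All 7 globins tested were highest in replicate 2 and lowest in replicate 1 in both groups, and all 7 ranged over more than 2 log2 units uninduced. Their summed level was 20.2, 262 and 102 on uninduced arrays 1, 2 and 3 and 11.1, 58.6 and 41.5 on the induced arrays. None of the 7 passed the threshold, with a median change of -1.47, and 1 had an unadjusted p under 0.05. With the block 6 fell (85.7%), against 6.81% of all genes. Alpha and beta globin genes have near-identical copies, so their probes are not independent. The part of red cell number in the levels of Slc4a1, Alas2 and Klf1 was not tested.

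**Figure D3:**
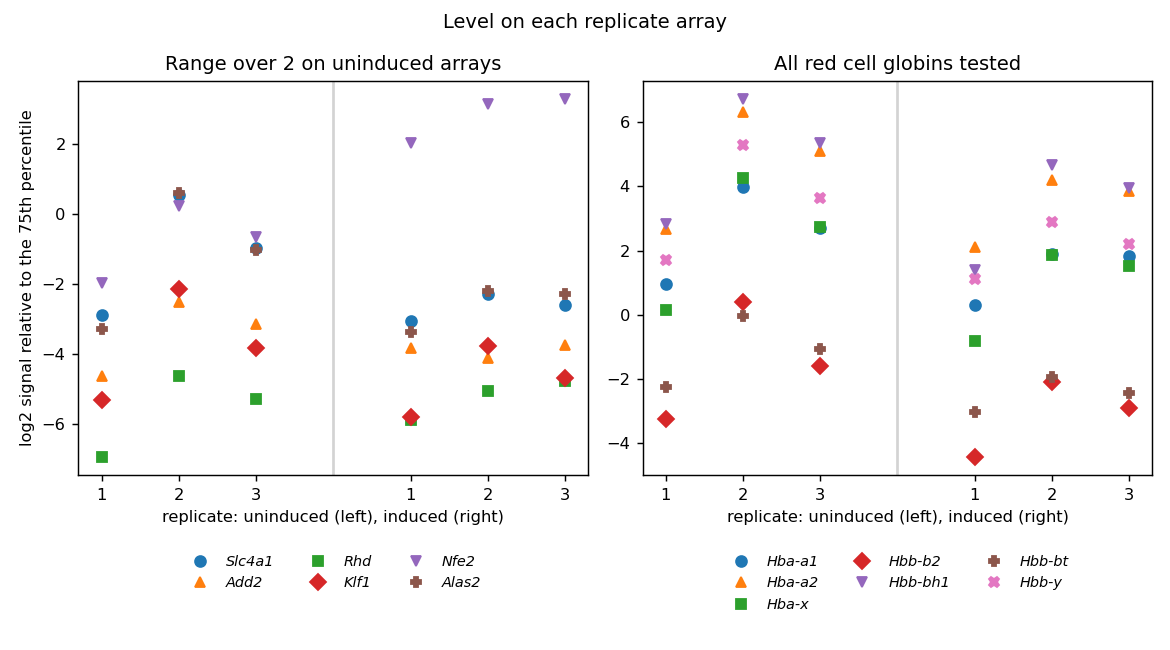
Log2 signal relative to the 75th percentile (vertical axis, own scale for each panel) on each replicate array, uninduced to the left and induced to the right of the grey line. The left panel shows the 6 listed genes that ranged over more than 2 log2 units on uninduced arrays, and the right panel the 7 red cell globins tested. Uninduced replicate 1 is the lowest and uninduced replicate 2 the highest for every gene shown, and Nfe2 alone in the left panel has all induced arrays above its uninduced arrays.

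Other genes of heme and iron handling were listed apart, and 3 of 26 passed the threshold (11.5%, against 6.31% of all genes). With the block 4 passed (15.4% against 16.2%), where Hfe joined those that fell (adjusted p = 0.00808). Abcb6, a porphyrin transporter, rose by 0.68 (SE 0.14, adjusted p = 0.0416), and Slc48a1, which moves heme out of lysosomes, rose by 1.12 (SE 0.25, adjusted p = 0.049). Both calls were lost in each of the 6 omissions of a replicate array. Slc40a1, ferroportin, the exporter of iron from cells, read 1.05, 1.76 and 1.68 uninduced and -0.01, -0.40 and -0.02 induced. The groups were well apart, and it fell by 1.64 on the log2 scale (SE 0.24, adjusted p = 0.0122, or 0.0539 without uninduced replicate 2). With spike-in scaling its change was -0.51 (adjusted p = 0.513). The brightest others were Pcbp1, Pcbp2 and Glrx5, at -0.10 (SE 0.29), -0.07 (SE 0.19) and 0.16 (SE 0.14).

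Of 22 other red cell membrane genes tested, 1 rose and 1 fell (9.09%, against 6.31% of all genes). With the block 4 passed (18.2% against 16.2%), where Tpm1 (adjusted p = 0.0165) and Icam4 (adjusted p = 0.0334) joined those that rose. Slc29a1, the nucleoside transporter ENT1, rose by 1.53 (SE 0.17, adjusted p = 0.0048), and that call held under all alternatives but the deposited log2 table, where no gene passed. Slc14a1, the urea transporter of red cells and of endothelium, read 0.03, 1.12 and 1.08 uninduced and -3.51, -1.90 and -1.74 induced. Its change was -3.13 (SE 0.53, adjusted p = 0.0214), and its adjusted p was 0.0857, 0.0676 and 0.0539 without uninduced replicate 2, uninduced replicate 3 and induced replicate 2. The brightest others, Tpm3, Sptbn1 and Slc2a1, were at 0.10 (SE 0.14), -0.02 (SE 0.16) and -0.55 (SE 0.35).

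Of 26 other erythroid regulators tested, 3 rose and 1 fell (15.4%, against 6.31% of all genes). With the block 8 passed (30.8% against 16.2%). There Gata2 and E2f2 joined those that rose (adjusted p = 0.0335 and 0.0385) and Lmo2 and Lyl1 those that fell (adjusted p = 0.0451 and 0.0168). Myb, a factor of blood progenitors, read -3.43, -2.47 and -4.36 uninduced and 0.78, 1.70 and 1.62 induced. It was well above background on 2 of 3 uninduced arrays and rose by 4.79 (SE 0.50, adjusted p = 0.0041), a call that held under the 13 alternatives from the scanner files that gave it a value. Zfpm1, the GATA1 partner FOG1, rose by 1.03 (SE 0.20, adjusted p = 0.0324), and Nfe2l2, a relative of Nfe2 that acts in the oxidative stress response, by 0.85 (SE 0.18, adjusted p = 0.0459). Sox6, which silences embryonic globin, fell by 2.43 on the log2 scale (SE 0.52, adjusted p = 0.0437), and by 1.57 with normexp background correction. Leaving out a replicate array kept the call of Zfpm1 and Nfe2l2 only without uninduced replicate 1, and that of Sox6 in none of 6. The brightest others were Bnip3l at -0.21 (SE 0.22), Mafg at 0.07 (SE 0.17) and Lyl1 at -0.93 (SE 0.64, adjusted p = 0.43, or 0.0168 with the block).

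Of the markers of other cell types, 1 of 6 macrophage, 1 of 8 endothelial and 0 of 5 smooth muscle markers tested passed the threshold. These are 16.7%, 12.5% and 0%, against 6.31% of all genes, and with the block 66.7%, 50% and 40%, against 16.2%. The summed level of 7 macrophage markers was 6.87 to 10.0 uninduced and 2.70 to 3.95 induced. Csf1r, the brightest of them on each replicate array, fell by 1.33 on the log2 scale (SE 0.24, adjusted p = 0.0258, or 0.792 with spike-in scaling). With the block Cd14 and Mrc1 also fell (adjusted p = 0.0126 and 0.032), while Lyz2, well above background on all induced and no uninduced arrays, rose (adjusted p = 0.00808, or 0.0885 without the block). The sums for 8 endothelial markers, 59.3 to 160 uninduced and 50.9 to 108 induced, were lower on the induced array of each pair, and Tek fell by 1.13 (SE 0.24, adjusted p = 0.0414, or 0.995 with spike-in scaling). With the block Emcn, Esam and Erg fell as well (adjusted p = 0.0094, 0.0067 and 0.0044). Those for 6 smooth muscle markers were 721 to 828 and 509 to 622, with Myh11 well above background on no array, and with the block Acta2 and Myocd fell (adjusted p = 0.0267 and 0.0287). Their part in the changes of Fth1, Tmod1 and Slc40a1 was not tested.

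The direction of small changes moved with the scaling. With spike-in scaling, where the median change of all genes was 1.21, 24 of the 29 genes were above 0 and 1 passed the threshold, Nfe2, at 4.75. Of all genes past the threshold 65.7% rose with 75th percentile scaling, and the share was 76.9% when arrays were centred on the median and 98.5% when scaled to the spike-ins. The rise of Nfe2 passed the threshold, and the change of Tmod1 stayed below 0, under each of the 5 ways shown.

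**Figure D4:**
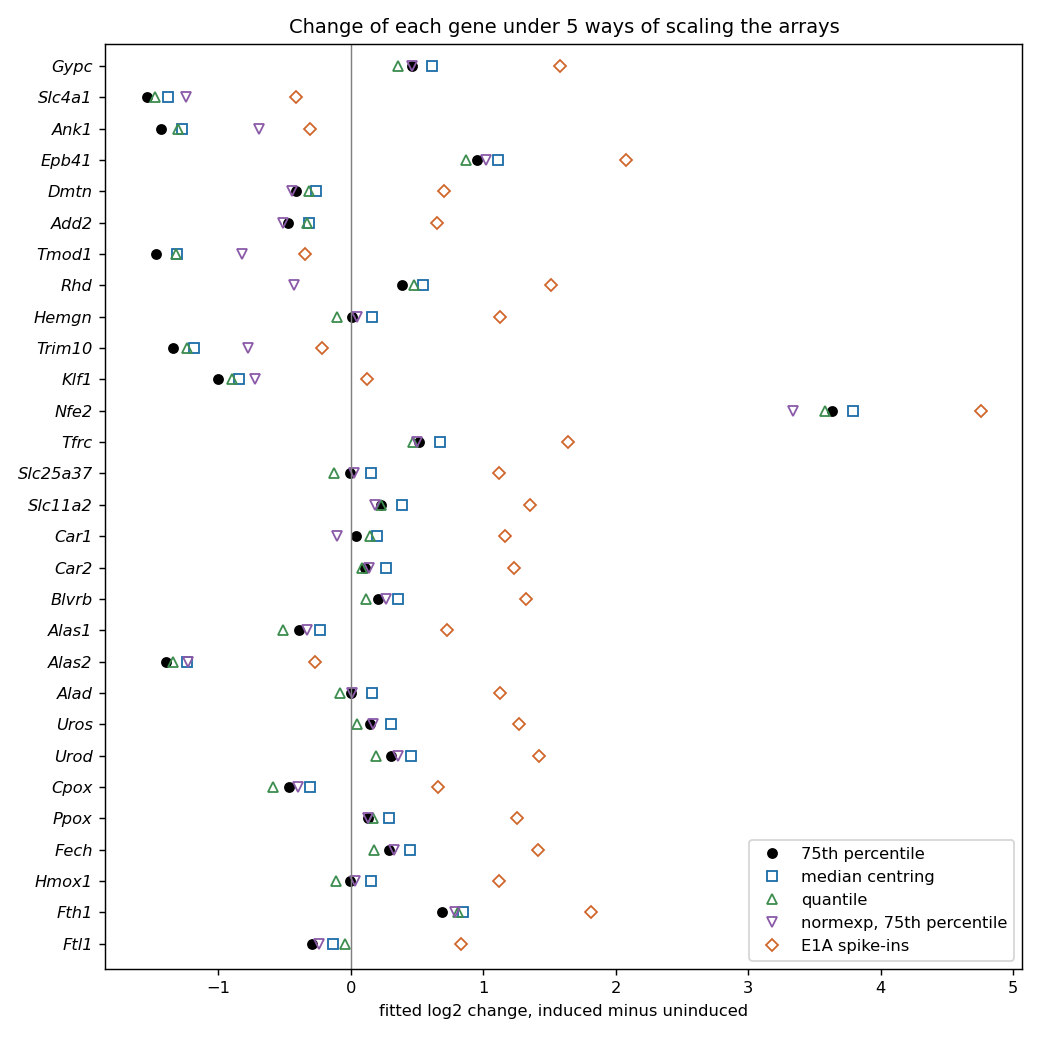
Fitted log2 change (horizontal axis, induced minus uninduced) of the 29 genes under 5 ways of scaling or background correction, 1 marker for each way. Spike-in scaling moves every gene to the right by about 1.12 relative to 75th percentile scaling, while Nfe2 stays far above 0 and Slc4a1, Ank1, Tmod1, Trim10 and Alas2 stay below 0 in all 5.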

How the data were processed

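Total RNA labelled with Cy3 was hybridised to 8 Agilent 1-colour arrays on 1 slide with 1 scan time. The authors deposited Feature Extraction output (version 10.7.3.1 per the file headers, 10.7.1.1 per the submitters' processing notes, which also name limma) whose processed signal is the linear intensity of each spot. A table of log2 values per spot was deposited too, and the sources used here do not state how it was normalized. Over 19751 spots, 2 of its 8 columns tracked the array they are named for and 6 tracked another, so the scanner files were used, and the table only as an alternative with columns as named. Its centring stays unknown.

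Control spots were dropped, as were 114 to 246 outlier spots per array. The log2 of the processed signal minus the array's 75th percentile was averaged over spots of a probe. A RefSeq accession named the gene through a GRCm38.p6 table, which gave 1 symbol to 26582 of 55681 probes, several to 0 and none to 29099. Probes well above background (on at least 50% of their spots) on all 3 replicate arrays of a group, 32857 in all, were kept, and the brightest stood for its gene. The main comparison, without a block, used limma 3.58.1 in R 4.3.3 (lmFit, then eBayes) with Benjamini-Hochberg adjustment. The script was tested on simulated data. Only 3 arrays per group limit the precision.

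Replicate numbers come from the titles. Deviations from the group means correlated between same-numbered arrays at 0.65, 0.45 and 0.43, so same-numbered arrays shared part of their spread. The 75th percentile also fell from replicate 1 to 3 in both groups (699, 378 and 338 uninduced, 973, 595 and 543 induced). Shared cells and shared array effects cannot be told apart. The fit with replicate number as a block is given where it changes a named call. Alternatives were other background correction, scaling, filters and probe choice, the block, each replicate array left out, and the deposited log2 table.

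The listed genes and the other gene lists were chosen with earlier results of these data known. Named are all listed genes, pathway genes past the threshold with the 3 brightest others of each list, markers past the threshold or well above background on no array, and Runx1. Genes of these lists past the threshold only with the block, and Hdc and Tpsb2, were named after their values were seen. Some genes of the list of other red cell membrane genes are not reported here and are left out of its counts.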

Additional observations from a re-analysis of the deposited data

How the results depend on the processing

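The slide could not be used as a block because all arrays lay on 1 slide. Past the threshold were 915 genes (694 with normexp, 894 with quantile normalization, 932 with median centring, 735 with spike-in scaling, 534 with no filter, 714 with the strict filter on all 6 arrays, 991 with the mean of the probes, 2346 with the replicate block, 378 to 824 with a replicate array left out). Of the red cell and heme genes, 3 passed (2 rose, 1 fell). With spike-in scaling 1 passed (1 rose, 0 fell), with no filter 2 (1 rose), with the replicate block 6 (3 rose, 3 fell), and with a replicate array left out 1 to 3 (0 to 2 rose, 0 to 2 fell). In limma on the authors' deposited log2 table, with columns as named, 0 of all genes and 0 of these genes passed (0 rose, 0 fell). There the column named uninduced 3 best tracked the array induced 1. Columns named induced 1 and induced 2 best tracked the array uninduced 2 and the uninduced technical repeat. Each group of that fit thus mixed uninduced and induced arrays, so its counts cannot compare induced with uninduced cells. Leaving out an array also lowers the number of samples. The cause of the differences between the alternatives from the scanner files was otherwise not tested.

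Reversed changes, none of them past the threshold, were as follows. Normexp gave Rhd -0.43, Slc25a37 0.027, Car1 -0.11, Hmox1 0.033, Pcbp2 0.0019 and Sptbn1 0.016. Quantile normalization gave Hemgn -0.10, Alad -0.085 and Mafg -0.038. Median centring gave Slc25a37 0.15, Hmox1 0.15, Pcbp1 0.055, Pcbp2 0.087 and Sptbn1 0.14. Spike-in scaling gave Dmtn 0.71, Add2 0.65, Klf1 0.12, Slc25a37 1.12, Alas1 0.73, Cpox 0.65, Hmox1 1.12, Ftl1 0.83, Pcbp1 1.02, Pcbp2 1.05, Sptbn1 1.103, Slc2a1 0.57, Bnip3l 0.92, Lyl1 0.19 and Runx1 0.10. The mean of the probes gave Tfrc -0.14, Slc11a2 -0.18, Pcbp2 0.049 and Mafg -0.080. With an array left out the ranges crossing 0 were Rhd -0.28 to 0.88, Hemgn -0.21 to 0.17, Slc25a37 -0.18 to 0.093, Car1 -0.0030 to 0.068, Car2 -0.39 to 0.71, Blvrb -0.050 to 0.36, Alad -0.15 to 0.13, Ppox -0.023 to 0.33, Hmox1 -0.091 to 0.11, Pcbp1 -0.35 to 0.11, Pcbp2 -0.20 to 0.089, Sptbn1 -0.11 to 0.092 and Mafg -0.031 to 0.17. Calls past the threshold held, of 14 alternatives from the scanner files, under 12 for Tmod1 and Slc40a1, 11 for Nfe2, 10 for Slc14a1, 9 for Pf4, 7 for Zfpm1 and Csf1r, 6 for Fth1, 5 for Abcb6, Sox6, Nfe2l2 and Tek and 4 for Slc48a1, and under all 13 that gave a value for Mcpt4 and Mcpt8 (no call held in the deposited table). Without the filter, the changes of the dim genes were -0.96 (Sptb), -1.24 (Epb42), -1.46 (Rhag) and -0.51 (Kel), with adjusted p from 0.083 for Rhag upward. Signals near background limit Ank1, Rhd and these 4 genes.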
